A study of Mus musculus with 20 samples.

Results

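Setd2 knockout and wild-type C2C12 cells were compared after 1 day of methionine restriction, by the regions of open chromatin called in each of 4 ATAC-seq libraries. C2C12 is a mouse myoblast line that forms muscle cells in culture, and ATAC-seq marks open DNA by inserting sequencing adapters with a transposase. The compared groups were wild type (WT) at D1 under methionine restriction (MR), with replicates 1 and 2, and Setd2 knockout (KO) at D1 under MR, with 1 library from each of the lines KO_1 and KO_2. They are 4 of 20 libraries, which also cover D0, D1 in control medium (CTL) and D5 in both media, with 2 libraries in each of 10 groups. All libraries are of the same cell line, and no treatment other than the medium is named. The labels do not say how the knockout was made, whether a KO line is 1 clone, or which cultures were separate, so a p-value here measures only the spread between these libraries, which may be technical in WT and mixes 2 lines in KO. Peak lists hold no RNA and no deletion, so the knockout itself was not checked here. Setd2 had 2 regions called in both WT lists. Of these, 1 was called in all 4 lists and the other, 116 bp within 1 kb of a gene end (chr9:110532839-110532954), in neither KO list. The latter region had fold enrichments of 3 and 3.72 in WT MR and no peak in any other WT list, and it was called in KO line 1 at D0 and, at 8.73, in KO line 1 at D1 CTL.

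The peaks of the 4 lists were merged wherever they shared at least 1 bp, which gave 80250 regions. A region was taken as lost when it had a peak in both WT lists and in neither KO list, and as gained in the reverse case. There were 14305 lost regions (17.8% of the 80250) and 1284 gained regions (1.60%), and 27144 regions were called in all 4 lists and are termed kept. A missing peak means that the region did not reach the authors' threshold, and fewer cells with an open region cannot be told apart from a weaker signal in every cell. Since these calls chose the sets, the calls at D1 MR are given as descriptions.

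Setd2 encodes the methyltransferase that places trimethylation on lysine 36 of histone H3 (H3K36me3) along the bodies of transcribed genes, travelling with elongating RNA polymerase II. The methyl group comes from S-adenosylmethionine, which is made from methionine. When myoblasts differentiate they leave the cell cycle and switch on myogenin, the sarcomere genes and the genes of calcium release and cell fusion, many of them through E-boxes bound by MyoD-family factors.

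Lost regions lay over or just upstream of the start sites of some differentiation genes. Of all 14305 lost regions, 6950 (48.6%) had no peak in any KO list. The 6 promoters shown were chosen after their values were seen, because the lost region at each lacked any KO peak or WT D0 peak. They belong to Myog (myogenin, the factor that commits myoblasts to differentiation), Acta1 (skeletal alpha-actin), Tnnt2 (cardiac troponin T, also made in early skeletal muscle cells), Unc45b (a chaperone of muscle myosin), Cacna1s (the voltage sensor of the skeletal muscle calcium channel) and Cdkn1a (the cell cycle inhibitor p21). The windows run from 250 bases before to 50 bases after the RefSeq start (assembly GRCm38.p6), 5′ to 3′ on the strand of the gene, with each E-box (CANNTG) in capitals.
Myog chr1:134289754-134290053 (plus strand): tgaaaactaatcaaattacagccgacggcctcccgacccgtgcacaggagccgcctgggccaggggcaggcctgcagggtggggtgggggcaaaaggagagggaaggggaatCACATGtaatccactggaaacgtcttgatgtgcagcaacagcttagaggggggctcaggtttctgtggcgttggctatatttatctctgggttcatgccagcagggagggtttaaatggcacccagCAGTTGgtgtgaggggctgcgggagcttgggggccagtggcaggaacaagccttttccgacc
Acta1 chr8:123894726-123895025 (minus strand): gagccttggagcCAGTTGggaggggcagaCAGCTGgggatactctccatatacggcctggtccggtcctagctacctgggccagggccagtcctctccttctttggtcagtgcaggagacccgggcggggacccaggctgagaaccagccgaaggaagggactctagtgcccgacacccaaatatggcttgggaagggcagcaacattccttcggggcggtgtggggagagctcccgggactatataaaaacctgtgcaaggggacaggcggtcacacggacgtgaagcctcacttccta
Tnnt2 chr1:135836084-135836383 (plus strand): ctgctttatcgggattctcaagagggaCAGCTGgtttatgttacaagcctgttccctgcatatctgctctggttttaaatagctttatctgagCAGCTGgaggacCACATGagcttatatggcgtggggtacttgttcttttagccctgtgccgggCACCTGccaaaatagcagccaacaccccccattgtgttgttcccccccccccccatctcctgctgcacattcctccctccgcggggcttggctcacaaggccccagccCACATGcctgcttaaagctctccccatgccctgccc
Unc45b chr11:82911003-82911302 (plus strand): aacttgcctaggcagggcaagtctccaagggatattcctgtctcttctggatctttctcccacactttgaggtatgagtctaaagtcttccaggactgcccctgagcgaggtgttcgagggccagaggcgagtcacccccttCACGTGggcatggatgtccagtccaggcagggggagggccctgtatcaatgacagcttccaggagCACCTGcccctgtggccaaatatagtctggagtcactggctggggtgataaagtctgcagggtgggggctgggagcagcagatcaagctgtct
Cacna1s chr1:136052561-136052860 (plus strand): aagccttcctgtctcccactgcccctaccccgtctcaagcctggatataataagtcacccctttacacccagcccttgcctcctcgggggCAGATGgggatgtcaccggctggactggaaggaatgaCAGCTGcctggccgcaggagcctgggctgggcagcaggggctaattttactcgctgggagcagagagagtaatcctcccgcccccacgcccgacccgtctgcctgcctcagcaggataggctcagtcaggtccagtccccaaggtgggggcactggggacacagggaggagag
Cdkn1a chr17:29090729-29091028 (plus strand): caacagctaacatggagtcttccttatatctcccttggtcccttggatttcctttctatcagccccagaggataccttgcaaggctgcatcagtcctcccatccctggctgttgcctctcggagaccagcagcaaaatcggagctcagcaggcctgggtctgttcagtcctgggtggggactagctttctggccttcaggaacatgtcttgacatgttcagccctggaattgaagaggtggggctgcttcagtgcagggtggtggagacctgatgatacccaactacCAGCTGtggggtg

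The lost region at Myog (chr1:134289611-134289914) overlapped 161 bases of the printed window. Its peak had a fold enrichment over background, as deposited by the authors, of 4.11 in WT MR replicate 1, 4.36 in WT MR replicate 2, 5.01 in WT CTL replicate 1 and 4.19 in WT CTL replicate 2 at D1. No KO library of any day had a peak there, and neither had the WT libraries of D0, while all 4 WT libraries of D5 did. Other lost regions followed at chr1:134290421-134290605 and chr1:134292172-134292254, and 5 of the 6 regions of Myog called in both WT lists were lost and 0 were kept.

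The Acta1 region (chr8:123894796-123895051) shared 230 bases with its window and had fold enrichments of 3.87 and 4.25 in the WT MR replicates and 4.15 and 4.31 in the WT CTL replicates at D1. The Tnnt2 region (chr1:135836023-135836433) covered all 300 bases of its window, with 5.05 and 4.87 in WT MR and 6.41 and 5.21 in WT CTL. The Unc45b region (chr11:82911122-82911364) shared 181 bases and gave 3.77 and 3.32 in WT MR and 5.23 and 4.19 in WT CTL. The calls at these gene starts were alike: a peak in 8 of 10 WT lists, which are those of D1 and D5, and in 0 of 10 KO lists. A pair of the 10 KO lists, those of line 1 at D5, hold 644 and 1881 peaks and could miss almost any region. Other lost gene-end regions of Acta1 and Unc45b differed. That of Acta1 at chr8:123895348-123895530, with 6.54 and 7.35 in WT MR, had a peak in KO CTL line 2. That of Unc45b at chr11:82943401-82943645 had a peak in KO CTL line 2 and in both WT D0 lists.

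The Cacna1s region (chr1:136052410-136052782) gave 3.16 and 3.50 in WT MR and 4.12 and 2.96 in WT CTL, and showed the same pattern of 8 WT and 0 KO lists. Cdkn1a differed. Its region (chr17:29090879-29090995) had fold enrichments of 3.08 and 2.75 in the WT MR replicates and no peak in either WT CTL library of D1, and outside D1 MR it was called in the 2 WT MR libraries of D5. Of the 8 regions of Cdkn1a called in both WT lists, 4 were lost and 4 kept. By the lower of the 2 WT MR within-list −log10 q percentiles, the Cdkn1a region stood at 8.75, Unc45b at 10.1 and Cacna1s at 11.6. Acta1 stood at 31.9, Myog at 38.0 and Tnnt2 at 47.9. Of regions within 1 kb of a gene end called in both WT lists, 62.1% below the 10th percentile were lost. The share was 50.3% between the 10th and 20th, 30.5% between the 30th and 40th and 21.4% between the 40th and 50th. Of the 6 windows, Tnnt2 held 5 E-boxes, Cdkn1a 1 and each of the others 2.

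The form CAGCTG was present in the windows of Acta1, Tnnt2, Cacna1s and Cdkn1a and not in those of Myog and Unc45b. Over the 21045 windows of protein-coding genes in the RefSeq table, 15.7% held CAGCTG. The share was 20.5% of the 698 windows that overlapped a lost region, 14.3% of the 7479 that overlapped a kept region, and 28.6% of the 35 that overlapped a gained region. Any E-box CANNTG, which includes CAGCTG, was in 65.9% of the windows with a lost region, 59.5% with a kept region and 69.0% of all. The AP-1 motif TGANTCA was in 4.44%, 4.52% and 7.04% of the same sets, the Tead motif GGAATG in 14.2%, 10.6% and 13.5%, and the CRE TGACGTCA in 3.44%, 3.76% and 2.26%. Both strands were searched.

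The WT lists held 69881 and 57676 peaks and the KO lists 48460 in line 1 and 35201 in line 2, with means of 63778 ± 8630 and 41830 ± 9376 (SD, n = 2 each). Both KO lists were shorter than both WT lists. The difference was −0.62 on the log2 scale, with a two-sided exact permutation p of 0.333, the smallest that 2 libraries against 2 allow. The background pileup, a measure of depth recovered from the lists, was 3.53 and 3.17 fragments per position in WT and 3.15 and 2.76 in KO. When every list was limited to the length of the shortest, the counts were 4560 lost and 3378 gained, and with peaks rescored at the depth of KO line 2 they were 13446 and 1472. WT peaks with a −log10 q of at least 5 and no KO peak of any strength marked 5440 lost regions.

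The regions called in both WT lists numbered 53608, and 26.7% of them were lost. Line 1 alone lacked a further 2929 (5.46%) and line 2 alone 9230 (17.2%), and 50.6% were kept. Near the border of the rule lay also 11171 regions called in WT replicate 1 only, against 1841 in WT replicate 2 only. Without WT replicate 2, which has the shorter WT list, 25567 regions met the rule, and without KO line 1 there were 23891.

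Lost regions were the weaker and narrower part of the WT lists. Their median width was 123 bp, against 347 bp for kept regions. Their median fold enrichment was 4.16 in WT replicate 1 and 3.95 in WT replicate 2, against 7.07 and 6.64 for kept regions. The strength of a region was taken as the lower of its 2 WT within-list percentiles of −log10 q. Among regions below the 50th percentile 45.4% were lost, and these made up 83.8% of the lost set, while 8.54% of the stronger regions were lost. From the lowest to the highest 10 percentiles the lost share fell from 60.3% to 0.430%.

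Position relative to genes differed as well. Of the lost regions 13.5% lay within 1 kb of an end of a protein-coding gene, 50.6% elsewhere in a gene body, 26.1% outside genes but within 50 kb of one, and 9.79% farther away. The kept regions had 29.8%, 38.4%, 21.8% and 9.88% in these classes. Read the other way, 16% of gene-end regions called in both WT lists were lost, against 31.1% of gene-body regions, 29.5% of those within 50 kb and 25.1% of those beyond. Each KO line alone showed the same order of gene ends and gene bodies, with 19.2% and 37.2% absent in line 1 and 29.6% and 49.1% in line 2.

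Gene-end regions were also stronger, with a median strength at the 65.8th percentile, against the 47.1st in gene bodies. At like strength the gap was small among the weakest and the strongest regions and wider between. In the lowest 10 percentiles 62.1% of gene-end and 63.0% of gene-body regions were lost. Between the 60th and 70th percentiles the shares were 5.67% of 1323 gene-end regions and 16.7% of 2282 gene-body regions, and 13.2% outside genes within 50 kb. In the highest 10 percentiles they were 0.0981% of gene-end and 0.980% of gene-body regions.

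**Figure D1:**
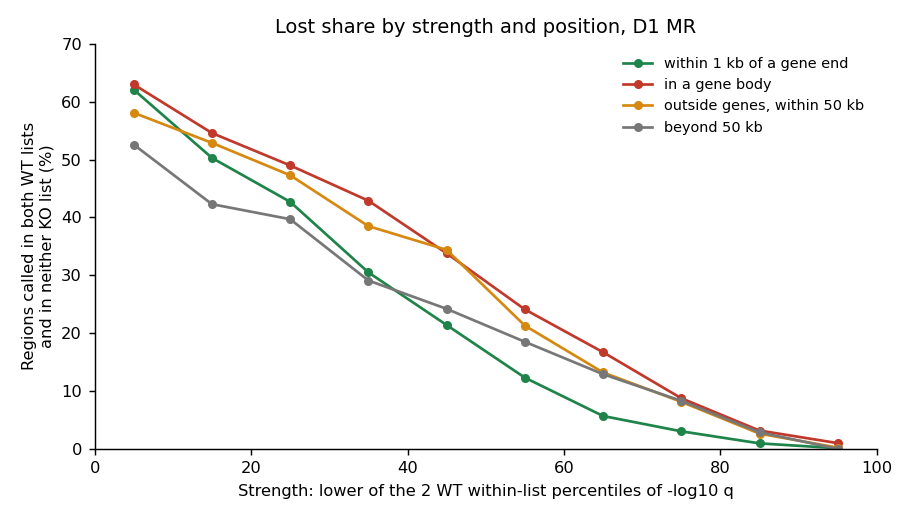
Percent of regions called in both WT D1 MR lists that were called in neither KO D1 MR list (y axis) by strength in steps of 10 percentiles (x axis), with 1 line for each position class. The share falls from about 60.3% overall in the weakest step to 0.430% in the strongest, and the gene-end line runs below the gene-body line in each step.

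Within gene bodies the lost share changed little along the gene. In steps of 20% of the gene length, in the direction of transcription, it was 29.3%, 29.9%, 31.7%, 31.9% and 32.8%, while the median strength was at the 47.6th, 48.9th, 47.0th, 46.5th and 44.7th percentile. By gene length it ranged from 30.0% in genes over 500000 bp to 32.4% in genes of 20000 to 50000 bp. By chromosome it ranged from 23.2% on chromosome 15 to 31.4% on chromosome 17.

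The lost regions were then looked up in WT D1 CTL, to count those called in WT cells in control medium. Of the 14305 lost regions, 4409 (30.8%) had no peak in either WT D1 CTL list, 3573 (25.0%) had a peak in 1 of them and 6323 (44.2%) in both. Of all 53608 regions called in both WT MR lists, 14.8% had no WT CTL peak, and of the kept regions 5.28%. Single WT CTL lists had a peak at 66.5% of the lost regions in replicate 1 (60173 peaks) and at 46.9% in replicate 2 (45545 peaks), so the absent share was 33.5% against the first list alone and 53.1% against the second alone. Without WT MR replicate 2 it was 46.9%.

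The regions lost and absent from WT D1 CTL were weaker than those present in both lists, with a median strength at the 14.9th against the 36.9th percentile and a median width of 108 against 139 bp. They were also less often called at D0 in WT, at 8.41% and 19.8% in replicates 1 and 2, against 57.8% and 66.4% for those with both WT CTL peaks. In KO at D0 28.2% of them had a peak in line 1 and 3.08% in line 2, against 34.0% and 9.09%. In WT under MR at D5 11.5% and 10.7% of them had a peak, against 41.6% and 44.2%. Over all lost regions, the D0 lists had a peak at 35.6% and 46.8% in WT and at 33.8% and 6.49% in KO lines 1 and 2. Across all libraries, 2060 lost regions (14.4%) had a peak in none of the other 18 lists, and 351 (2.45%) in each of the other 8 WT lists.

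In KO cells kept in control medium at D1, 8398 lost regions (58.7%) had no peak in either line and 1732 (12.1%) had a peak in both. Of the 6323 lost regions with both WT CTL peaks, 3065 had no KO CTL peak and 1154 had both. The genotypes were also compared in the other conditions by the same rule, on libraries that the D1 MR rule did not use. At D1 CTL 5252 of 81541 regions (6.44%) were lost and 4378 (5.37%) gained. Of the D1 MR lost regions 21.4% overlapped a D1 CTL lost region, which is 58.5% of the D1 CTL lost set. At D0 3909 of 73317 regions were lost, and the overlap was 14.3% of the D1 MR set and 52.6% of the D0 set. The same KO lines recur in each condition.

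**Figure D2:**
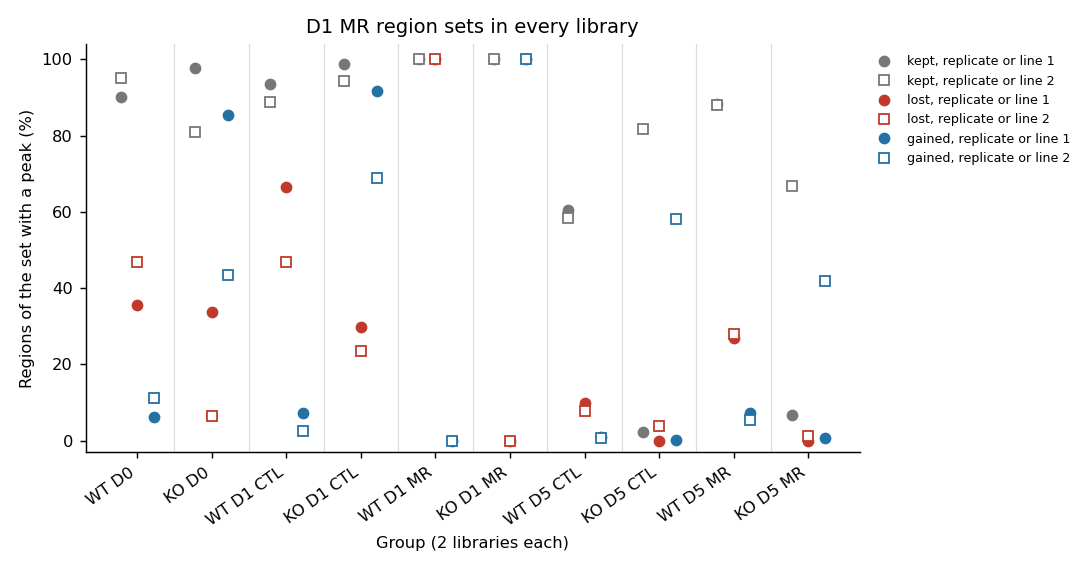
Percent of the kept, lost and gained D1 MR regions (y axis) that have a peak in each of the 20 libraries, by group (x axis), with filled circles for WT replicate 1 or KO line 1 and open squares for WT replicate 2 or KO line 2. Values in WT D1 MR and KO D1 MR are 0 or 100% by the rule. Lost regions are called more often in WT than in KO at D1 CTL, and gained regions more often in KO, while KO line 1 at D5 has few peaks of any set.

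The lost regions lay near many genes. Each region was assigned to every protein-coding gene it overlapped, or else to the nearest one within 50 kb. Of 14495 genes with a region called in both WT lists, 6929 (47.8%) had at least 1 lost region. At gene ends the count was 1947 of 10927 genes (17.8%). A region within 1 kb of a gene's end counts there also when it overlaps, and is assigned to, another gene.

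Sarcomere genes had the highest share of lost regions among the 22 gene lists. Of 141 regions of the contractile apparatus list called in both WT lists 62 were lost (44.0%, against 26.7% of all regions) and 52 kept, and 27 of its 34 genes with such a region had a loss (79.4%, against 47.8%). At gene ends it was 11 of 20 genes (55.0%, against 17.8%): Acta1, Actn3, Mybph, Myom3, Smyd1, Tnnc1, Tnni2, Tnnt2, Tnnt3, Unc45b and Xirp1. Several other lists stood higher by these gene counts, among them myoblast identity with a loss in 87.5% of its genes and at the ends of 66.7%, insulin-like growth factor and FGF signalling in 85.0% of genes, and the fibroblast and smooth muscle list at the ends of 66.7%. The median strength of the 141 regions was at the 51.4th percentile. Below the 50th percentile 64.3% of them were lost and above it 23.9%, against 45.4% and 8.54% of all regions. The share stayed above that of all regions without any 1 of the 4 libraries, between 45.9% and 58.7%, against 29.2% to 44.0% for all regions. With lists of equal length it was 33.7% against 14.7%.

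The members with the most lost regions were Tpm1, which encodes tropomyosin, with 6 of 12 lost, skeletal alpha-actin Acta1 with 5 of 6, the M-line protein gene Myom3 with 5 of 7 and embryonic myosin heavy chain Myh3 with 4 of 5. Among troponin genes Tnnt3 lost 4 of 6, Tnnc1 2 of 2, Tnni2 1 of 1 and Tnnc2 1 of 2, while Tnni1 lost 3 and kept 4 of 9, Tnnt2 lost 1 and kept 4 of 5, and Tnnt1 lost 0 of 1. Others did not follow: Ldb3 kept 6 of 7 and Mylk2 5 of 6 with none lost, and Tpm2 and Myoz2 each kept all 3. Ckm, Myh4, Myh8 and Tcap had no region called in both WT lists.

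These sarcomere regions were called in WT beyond D1 MR. Both WT D1 CTL lists had a peak at 43 of the 62 (69.4%, against 44.2% of all lost regions). At D5 the WT lists had a peak at 28 and 29 in CTL and 43 and 44 in MR, which is 45.2% and 46.8%, and 69.4% and 71.0%, against 9.79% and 7.83%, and 26.9% and 27.9%, of all lost regions. In KO at D1 CTL 14 had a peak in line 1 and 8 in line 2. These are 22.6% and 12.9%, against 29.8% and 23.6% of all lost regions. KO line 2 at D5 had 0 in CTL, against 3.89% of all lost regions, and 4 in MR (6.45%, against 1.24%).

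The calcium handling and synapse list had a lower lost share. Of 86 regions 19 were lost (22.1%, against 26.7%), and 4 of 19 genes had a loss at a gene end (21.1%, near the 17.8% of all genes): Cacna1s, Casq2, Hrc and Jsrp1, of which Casq2 encodes the calcium store protein calsequestrin. Both WT D1 CTL lists had a peak at 15 of the 19 lost regions (78.9%, against 44.2% of all lost regions). WT MR at D5 had a peak at 15 and 13 (78.9% and 68.4%, against 26.9% and 27.9%). Cacnb1, a subunit of the same calcium channel as Cacna1s, had 5 of 7 regions lost.

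**Figure D3:**
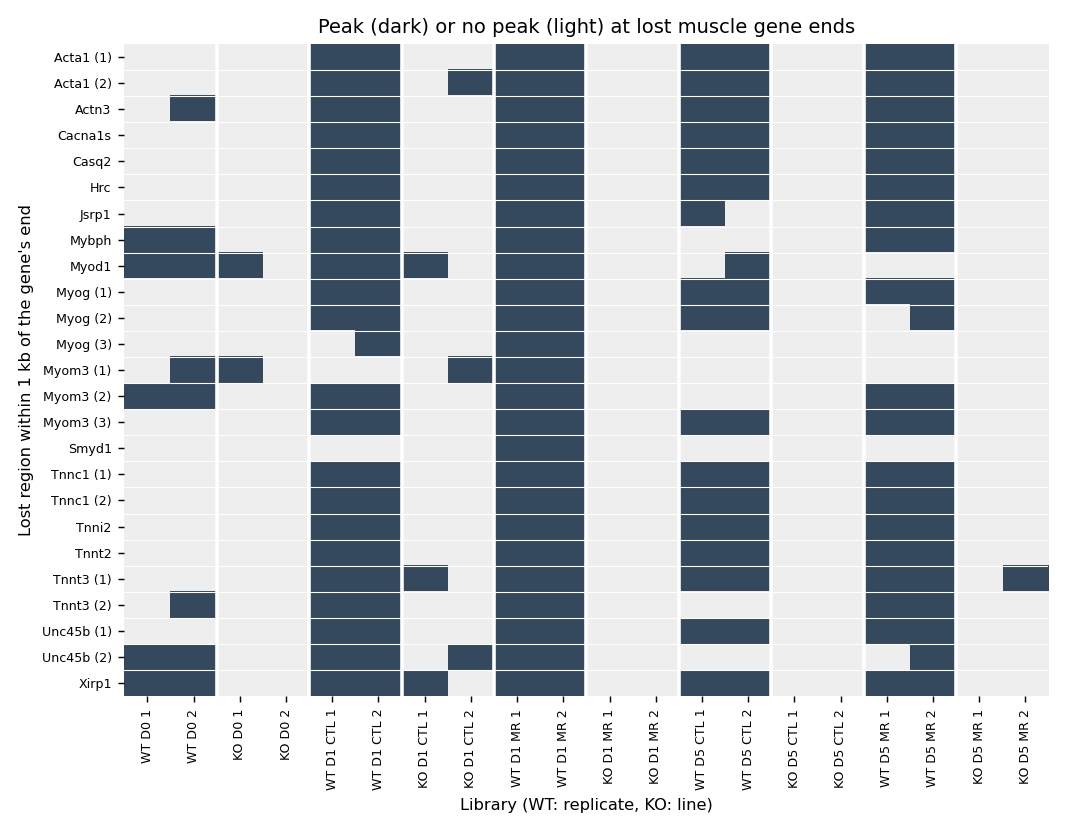
Peak (dark) or no peak (light) in each of the 20 libraries (x axis) at the 25 lost regions within 1 kb of an end of 17 genes (y axis) of the contractile apparatus, calcium handling and synapse, and myogenic regulator lists. At D1 CTL 22 and 23 of them are called in the WT replicates and 3 and 3 in the KO lines. At D0 5 and 8 are called in WT and 2 and 0 in KO, and 19 have no peak in any KO list. Of all lost regions 66.5% and 46.9% are called in WT and 29.8% and 23.6% in KO at D1 CTL. At D0 these shares are 35.6% and 46.8% in WT and 33.8% and 6.49% in KO, and 48.6% have no KO peak.

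Among the myogenic regulators 36 of 133 regions were lost (27.1%) and 71 kept, close to the share over all regions. Losses at gene ends were seen at Myog and Myod1, 2 of 12 genes (16.7%, near the 17.8% of all genes). Myod1, the founding factor of the family, kept 5 of 7 regions. Its lost gene-end region (chr7:46377127-46377299) had fold enrichments of 4.20 and 5.91 in WT MR and 3.57 and 2.88 in WT CTL, and a peak in KO CTL line 1 of 2.89. Pax7, a marker of muscle stem cells, lost 5 of 12 and kept 4. Mef2c, a partner of myogenin, lost 3 of 6 and Nfix 3 of 20. Six4 and Pax3 kept each of their 3 and 2 regions.

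For the label of the cells, all 8 myoblast markers had a region called in both WT lists, and 6 of the 8 had a gene-end peak in each of the 4 libraries. The list lost 24 of 70 regions (34.3%), with losses at the ends of Des, Vim, Myod1 and Cdh15. Ncam1 lost 6 of 18 and Cdh15, muscle cadherin, 5 of 10, while Itga7 lost 0 of 8. Gene-end peaks were found at 4 and 3 of 9 adipocyte markers in WT and 2 and 3 in KO, at 4 and 3 of 10 bone and cartilage markers in WT and 2 and 2 in KO, at 6 and 6 of 10 fibroblast and smooth muscle markers in WT and 3 and 2 in KO, at 3 and 3 of 10 neuron markers in WT and 2 and 3 in KO, and at 1 and 1 of 12 blood and endothelium markers in WT and 2 and 1 in KO. Des stands in both the myoblast and the fibroblast and smooth muscle list. The part of such cell types in the lost set was not tested.

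Fusion and adhesion genes lost 42 of 143 regions (29.4%), and 7 of 17 genes had a loss at a gene end (41.2%, against 17.8%). By the lower WT MR percentile, these gene-end regions stood at 0.603 for Boc, 1.44 for Jam3 and at most 5.94 for Cdh2. Those of Dysf, Mymk and Adgrb1 stood at 24.9, 34.7 and 65.7, and those of Cdh15 at most at 29.5. Of gene-end regions below the 10th percentile called in both WT lists, 62.1% were lost. Mymk, which encodes the fusogen myomaker, lost 5 of 8, and the membrane repair gene Dysf 7 of 17. The cell cycle list lost 25 of 93 (26.9%), close to the share of all regions. In it 3 of 19 genes had a gene-end loss (15.8%, near the 17.8% of all genes): Cdk4, E2f1 and Cdkn1a. The cyclin genes differed among themselves, with 6 of 11 regions lost at Ccnd3 and 3 of 4 at Ccnd2, against 0 of 7 at Ccnd1, 1 of 8 at Ccne1 and 0 of 1 at each of Ccna2 and Ccnb1. Of the 25 lost regions of this list 8 had no WT D1 CTL peak (32.0%, near the 30.8% of all lost regions). Those at the ends of Cdkn1a and Cdk4 are among the 8.

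Genes that act on H3K36 lost 24 of 72 regions (33.3%). Dnmt3a, a DNA methyltransferase that reads H3K36 methylation, lost 7 of 7, and the demethylase gene Kdm4b 5 of 11. At gene ends 3 of 16 genes had a loss (18.8%, near the 17.8% of all genes): Kdm4a, Nsd2 and Setd2. The methionine cycle and polyamine list lost 16 of 67 (23.9%), and 3 of 17 genes had a gene-end loss (17.6%, near the 17.8% of all genes). These were Mtap, which salvages methionine, Srm, which makes spermidine, and Gnmt, whose region overlaps Pex6 and is not among the 16. The Mtap region was called in no WT list outside D1 MR and in both KO lines at D0 and at D1 CTL. The amino acid response list lost 18 of 106 (17%), with a gene-end loss at 4 of 23 genes (17.4%, again near that of all genes). These were Trib3, Ddit4, Cebpb and Ddit3, whose region overlaps Mars1 and is not among the 18.

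Among signalling genes the insulin-like growth factor and FGF list lost 43 of 124 regions (34.7%). Igf1r and Igf2r, receptors for insulin-like growth factors, lost 8 of 14 and 8 of 17. The median strength of this list was at the 39.9th percentile, and its lost share was 48.0% below the 50th and 14.3% above, against 45.4% and 8.54% of all regions. Wnt and Notch genes lost 55 of 180 (30.6%), with Notch2 at 7 of 20 and the Wnt co-receptor Lrp5 at 6 of 10. TGF-beta, BMP and myostatin genes lost 39 of 184 (21.2%). In this list Acvr2b, a myostatin receptor, lost 3 of 4, and Smad3 lost 3 of 25 and kept 18. AP-1 and Tead-Yap genes lost 45 of 177 (25.4%), 7 of them at Fos. The gene-end shares of these lists stood above the 17.8% of all genes. They were 6 of 15 genes for insulin-like growth factor and FGF (40.0%) and 8 of 24 for TGF-beta, BMP and myostatin (33.3%). For Wnt and Notch it was 5 of 17 (29.4%), and for AP-1 and Tead-Yap 6 of 22 (27.3%).

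Lower shares were found for extracellular matrix genes, 51 of 245 (20.8%), and for actin cytoskeleton and focal adhesion genes, 76 of 398 (19.1%). In these lists Fbn1 lost 9 of 22, Lama5 7 of 15, Tln2 8 of 21 and Tns1 8 of 31. Cytosolic ribosomal protein genes lost 11 of 56 (19.6%) and oxidative phosphorylation genes 5 of 37 (13.5%). A gene-end loss was found at 5 of 21 matrix genes (23.8%) and 7 of 29 actin and adhesion genes (24.1%), against 17.8% of all genes. It was found at 5 of 29 ribosomal protein genes (17.2%) and 2 of 20 oxidative phosphorylation genes (10.0%). At gene ends the number of ribosomal protein genes with a peak was 29 and 29 of 29 in WT and 28 and 24 in KO.

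**Figure D4:**
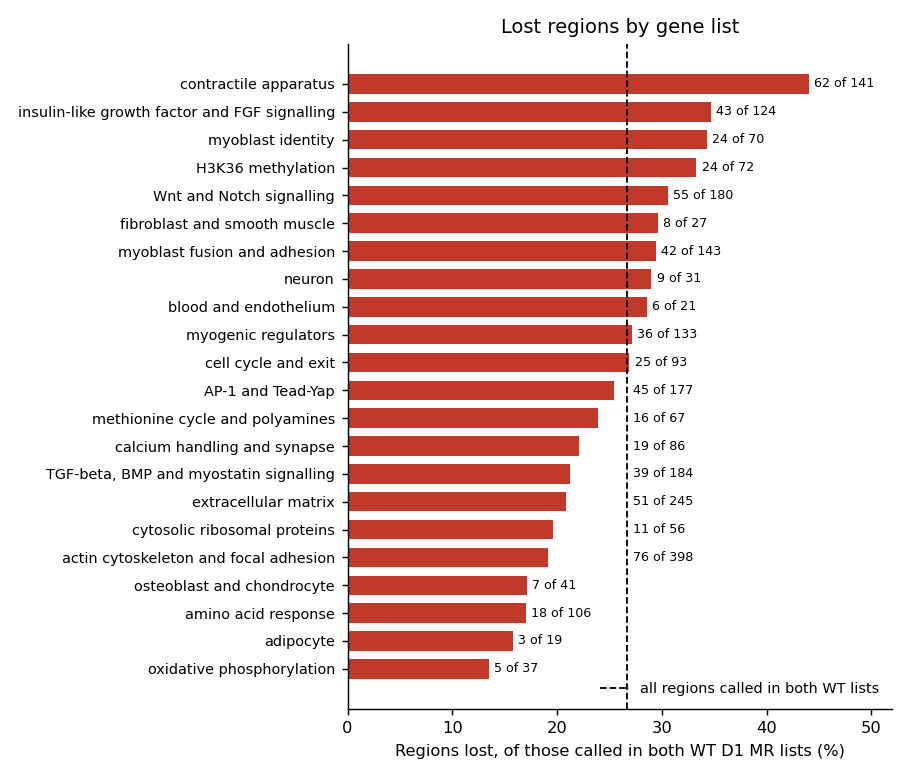
Percent of regions called in both WT D1 MR lists that were called in neither KO D1 MR list (x axis) for the 22 gene lists (y axis), with the counts beside each bar and a dashed line at 26.7% for all such regions. The contractile apparatus has 44.0% and oxidative phosphorylation 13.5%.

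The strongest lost region lay in Plcb4, a phospholipase C gene (chr2:135984103-135984260). Its fold enrichments were 16.6 and 15.5 in the WT MR replicates and 16.2 and 14.6 in WT CTL, and 5.30 in KO CTL line 2. The region in Pax5 (chr4:44633750-44634041) had 15.9 and 13.7 in WT MR and 13 and 11.1 in WT CTL, and 4.04 and 6.08 in the KO CTL lines. Regions in Arid3a (chr10:79945566-79946157) and Srrm3 (chr5:135850987-135851289) likewise had peaks in both KO CTL lists, at 3.50 and 4.48 and at 2.83 and 6.48, below the 12.3 and 12.6 and the 13 and 12.9 in WT CTL. Fold enrichment is relative to each list's own background.

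Some of the strongest lost regions had no peak in any KO list. Rbm19 and Mdga1 each had a region called in 10 WT and 0 KO lists, and B3galnt2 one in 7 and 0. Those in Cdh13, Sppl3 and Patj had peaks in 8, 10 and 10 WT lists and in 2, 2 and 3 KO lists.

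Among the strongest lost regions at gene ends, that of Tigar, a regulator of glycolysis (chr6:127109493-127109729), had 10.5 and 11.1 in WT MR, 17.2 and 11 in WT CTL and 3.67 and 5.43 in KO CTL. The region at Hlx, a homeobox gene (chr1:184732247-184732814), had 8.23 and 12 in WT MR and 14 and 10.9 in WT CTL, and KO CTL reached 6.27 and 12.9, so that in control medium the genotypes overlapped. Fam171a2 and Ubr2 also had peaks in both KO CTL lists, while the region assigned to Bbof1 and Rnf113a2 and that at Mdga1 had none.

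The strongest lost regions without any WT D1 CTL peak were weaker and rarer in the other libraries. The region in Scp2, a sterol carrier gene (chr4:108079119-108079218), had fold enrichments of 10.6 and 9.64 in WT MR, and no other of the 20 lists had a peak there. The same held for a region 5.68 kb from Peli3 (chr19:4948810-4948904, 8.58 and 9.18) and for one on chromosome 14 with no gene within 50 kb (8.08 and 8.38). The regions in Ttc28 (8.73 and 8.62) and Tbc1d22a (10.5 and 8.28) had peaks in 4 and 3 WT lists, and that 11.3 kb from Usp14 in the 2 WT MR lists of D1.

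Counted by gene, long genes headed the list. Cdh13, the gene of a cadherin without a transmembrane part, spans 1185 kb and lost 22 of 47 regions, Agap1 lost 18 of 43, Tbc1d22a 17 of 25, Ttc28 16 of 31, Dst 16 of 40, Sorcs2 15 of 39, the Src-family kinase gene Fyn 14 of 23 and Snx29 14 of 27. By share among genes with at least 10 regions called in both WT lists, Ccdc88c lost 14 of 14, Ankmy1 10 of 11, Btbd9 12 of 14, Casz1 12 of 14, Rin3 10 of 12, Bcas3 8 of 10, the protein kinase C gene Prkce 11 of 14 and Otog 9 of 12. At the other end, Tns3 kept 21 of 31 regions with none lost, Lif 16 of 17, Csf1 12 of 15, Ets1 12 of 15, Rara 12 of 12 and S100a10 11 of 11. Lif and Csf1 encode secreted cytokines, and Ets1 and Rara transcription factors.

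Some losses followed each other along a chromosome. Stretches were listed, after the values had been seen, where at least 8 lost regions came in a row with no KO D1 MR peak between them, and there were 24. A row of 11 on chromosome 12, from 3791834 to 4038934, ran across Dnmt3a, Pomc and Efr3b, with 0 and 4 called in the KO CTL lines and 11 and 8 in WT CTL. Rows of 10 lay across Bcas3 and Tbx2 on chromosome 11, D630003M21Rik, Bpi and Lbp on chromosome 2, and Zfp536 and Uri1 on chromosome 7. Over chromosome 12 as a whole, 38.6% of regions called in both WT lists were absent from KO line 1, the highest share of any chromosome for that line, and 44.3% from line 2, whose chromosomes ranged from 36.8% to 51.9%. The part of the chromosome in these rows was not tested.

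Of the gained regions 4.83% lay within 1 kb of a gene end, 39.3% elsewhere in a gene body, 20.3% within 50 kb of a gene and 35.5% farther away, against 29.8%, 38.4%, 21.8% and 9.88% of kept regions. The gained regions were assigned, by overlap or as the nearest gene within 50 kb, to 693 of all 21631 protein-coding genes (3.20%). In control medium at D1, 91.8% of the gained regions had a peak in KO line 1 and 68.8% in line 2, against 7.40% and 2.65% in the WT replicates, and at D0 85.4% and 43.5% in KO against 6.15% and 11.1% in WT. Without KO line 2, 8084 regions met the rule for gain, and without line 1 there were 2596.

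The strongest gained region lay 17.4 kb from Cdc7, a replication kinase gene (chr5:107001864-107002061), with fold enrichments of 12.9 and 10.4 in the KO MR lines and 11.1 and 8.97 in KO CTL. It had a peak in 8 KO lists, all but those of line 1 at D5, and in 0 WT lists. The region in Pde3a, a phosphodiesterase gene (chr6:141408951-141409096), had 13.1 and 8.43 in KO MR and the same calls. A region in Fpgs had 9.95 and 7.85 in KO MR and was called in 8 KO and 3 WT lists, and the other 5 of the 8 strongest had no gene within 50 kb.

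Of the listed genes, Syt1 and Col6a3 had a gained region at a gene end. Syt1, which encodes the synaptic vesicle protein synaptotagmin and stands in the neuron list, had 2 of them (chr10:109010884-109011146 and chr10:109011539-109011764). The first had fold enrichments of 12.3 and 6.54 in KO MR and 11.6 and 5.77 in KO CTL and was called in 0 WT lists. The second had 9.42 and 6.65, and 11.3 and 8.12, again with no WT peak. Col6a3, a collagen gene, had 3.29 and 3.40 in KO MR and 4.55 and 6.15 in KO CTL. By the lower of the 2 KO MR within-list percentiles its region stood at 8.42. It was called in 6 KO and 3 WT lists. The WT lists were D0 replicate 2, D1 CTL replicate 1, with a fold enrichment of 4.72, and D5 MR replicate 2.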

How the data were processed

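ATAC-seq was run on 20 C2C12 libraries, whose titles give genotype, day and medium. Per the labels' protocols, tagmentation used a kit, followed by 10 cycles of PCR and paired-end sequencing. The build is GRCm38, per the submitters' processing notes. Aligner, filters, read shift and peak caller are not given in the sources used here. The authors deposited 1 broadPeak list per library, with a score, a fold enrichment (a ratio), a −log10 p-value and a −log10 q-value for each peak. Peaks were ranked by these values inside their own list. Fold enrichments are also set side by side across lists, each relative to the background of its own list. Some alternatives put the same −log10 q limit on several lists or rescored peaks from their fold enrichment. The lowest −log10 q-value in the 4 compared lists was 1.01.

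Peaks were merged at 1 bp overlap with Python 3.11.15 (numpy 2.4.6, pandas 2.3.3, scipy 1.17.1). Genes (21631 protein-coding) and promoters came from RefSeq tables of GRCm38.p6, and 17274 genes with a known strand entered the positions along gene bodies. Read depth is not in the lists. A background pileup was recovered from each list's fold and p-value columns, assuming a Poisson p-value. The merging and calling code was run on simulated lists without missed peaks or differences in depth. That check covers the code only and cannot judge calls of weak peaks. By rule, the text names the 12 strongest lost regions, the 6 strongest at gene ends, 6 with and 6 without WT D1 CTL peaks, the 8 strongest gained regions, genes with the most lost, highest lost share and most kept regions, and list members with a gene-end change or the most losses. A few items that these rules select are not reported here. The members and gene lists were chosen with earlier results of these data known. Alternative thresholds, list lengths, depths, overlaps and left-out libraries were tried.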

Additional observations from a re-analysis of the deposited data

How the results depend on the processing

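The lower number of peaks in KO kept its direction in 7 of 7 alternatives, between −0.39 and −0.85 on the log2 scale with single libraries left out and between −0.57 and −0.72 otherwise. The count of lost regions stayed within 1.5 times of 14305 in 8 of 13 alternatives. It was 4560 with every list at the length of the shortest, 2633 with the 20000 strongest peaks of each list, and 5440 for WT peaks of −log10 q 5 or more against KO lists as deposited. Without 1 library it ranged from 16460 to 25567. The count of gained regions was 658 with a −log10 q of at least 5 in every list, 3378 with lists of equal length, 1971 with the 20000 strongest peaks and 256 for KO peaks of −log10 q 5 or more, and ranged from 1396 to 8084 without 1 library. Lists of equal length and of 20000 peaks remove more WT than KO peaks by construction. The share of lost regions absent from WT D1 CTL lay between 24.0% and 38.6% under the other settings and between 24.4% and 53.1% with 1 library left out. The lost share was lower at gene ends than in gene bodies in each setting, with 7.25% and 18.6% at equal list length and 8.99% and 18.5% with 20000 peaks. The settings for gene positions and for the contractile list, except the distances of 2 kb and 10 kb, were chosen after seeing the data, and the contractile share ranged from 27.5% to 58.7%. No paired analysis was possible because both KO libraries of a condition carry replicate number 1 in their titles and differ by line, so the groups share fewer than 2 numbers. Depth per library was recovered under assumed formulas.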
